A study of Homo sapiens with 12 samples.

Results

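The genes described here are the ZNF genes that H1299 cells express. They are the entries of the deposited count table whose symbol is ZNF followed by a number and whose mean in the 3 control libraries was 10 or more CPM (raw counts scaled to the library total). Of 433 such symbols in the table, 252 met the rule and 181 did not, and all 252 passed the filter on low counts and were tested. The genes were thus selected on their counts in the control libraries, and that level is a description that is not tested. H1299 is a human cell line of non-small cell lung cancer. The control cells (shNT, 3 libraries) carried a control vector, and the other cells (shGAS41, 3 libraries) carried a knockdown construct against GAS41, the histone reader encoded by YEATS4. Both groups were infected with virus in the presence of polybrene and selected with puromycin or blasticidin, depending on the vector. The labels name no time point, no number of hairpins and no separate cultures, so p-values measure only how these libraries vary, and that variation may be technical.

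ZNF symbols were given to genes for proteins with zinc fingers, most of them of the C2H2 type, in which a small loop held by a zinc ion reads a few bases of DNA, and strings of loops read longer sites. Many of these proteins also carry a KRAB box, which binds TRIM28 and through it the histone methyltransferase SETDB1 and HP1 proteins, and many of these repressors act on retroelements. The genes stand in long tandem clusters, above all on chromosome 19, where copies arose by duplication. Other ZNF proteins have no part in this pathway and serve in translation, RNA processing, mitosis or gene activation.

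Copies made by duplication can keep related start-site sequences, and these are shown for 6 genes because related windows belonged to transcripts that moved in opposite directions. RefSeq gave a promoter window (250 bases before to 50 after the start, GRCh38.p14) for 218 of the 252 genes. In a group of 25, each window held at least 20 words of 10 bases in common with another window of the group, a limit chosen after the sequences had been seen. ZNF519 shared only 6 to 15 words with ZNF100, ZNF714, ZNF680 and ZNF92 and joined the group through other genes. The lines give 100 bases before to 20 after the start, 5′ to 3′ in the direction of transcription, with CCAAT and CCGGAAG (the ETS core) in capitals on either strand. ZNF519 lies at chr18:14132416-14132535 on the minus strand, ZNF100 at chr19:21767560-21767679 on the minus strand and ZNF714 at chr19:21082103-21082222 on the plus strand, and all 3 fell after knockdown. ZNF92 lies at chr7:65373755-65373874 on the plus strand, ZNF680 at chr7:64563052-64563171 on the minus strand and ZNF267 at chr16:31873707-31873826 on the plus strand, and all 3 rose.
ZNF519: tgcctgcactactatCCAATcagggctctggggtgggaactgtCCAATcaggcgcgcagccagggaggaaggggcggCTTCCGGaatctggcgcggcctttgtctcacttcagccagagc
ZNF100: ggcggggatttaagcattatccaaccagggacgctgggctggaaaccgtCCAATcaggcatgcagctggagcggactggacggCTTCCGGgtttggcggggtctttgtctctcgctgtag
ZNF714: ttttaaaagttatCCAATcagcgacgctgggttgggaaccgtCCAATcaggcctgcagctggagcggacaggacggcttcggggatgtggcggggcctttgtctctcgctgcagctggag
ZNF92: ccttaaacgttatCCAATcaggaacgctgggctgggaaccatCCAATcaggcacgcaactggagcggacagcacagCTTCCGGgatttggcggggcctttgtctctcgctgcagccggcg
ZNF680: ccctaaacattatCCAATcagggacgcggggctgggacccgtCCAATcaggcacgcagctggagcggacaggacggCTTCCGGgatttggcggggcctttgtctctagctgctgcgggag
ZNF267: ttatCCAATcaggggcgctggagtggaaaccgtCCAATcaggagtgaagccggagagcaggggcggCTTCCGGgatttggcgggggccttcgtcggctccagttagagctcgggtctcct

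The knockdown was seen in every shGAS41 library. YEATS4 had 46.3 ± 1.89 CPM in control cells and 1.81 ± 0.179 CPM after knockdown (TMM-scaled CPM, mean ± SD, n = 3 each). The libraries held 58629147 to 72747010 counts, and the median count of a ZNF gene in the set was 1061.5 to 1473.5 per library. Of the marker genes looked for, the epithelial keratins KRT8 and KRT18 and the mesenchymal filament gene VIM were in the table, while KRT19, the blood cell genes PTPRC, CD3E and CD14, the endothelial genes PECAM1 and VWF and the fibroblast gene DCN were not listed, and the fibroblast collagen gene COL1A1 was at 0.817 CPM in control cells. In bulk RNA, a change in the number of cells that make a transcript and a change in RNA per cell cannot be told apart.

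More of the ZNF transcripts fell than rose after knockdown. With edgeR's quasi-likelihood test, adjusted by Benjamini-Hochberg over all 13846 genes tested, 114 of the 252 fell, 40 rose and 98 were not called at an adjusted p under 0.05. Over all genes tested, 34.5% fell and 33.6% rose. Among the 9505 genes that met the same level in control cells, 40.9% fell and 31.2% rose, so the 45.2% of ZNF genes that fell stood near that background and the 15.9% that rose stood below it. The difference between these shares was not tested. The median log2 fold change (knockdown over control) was −0.19 over the ZNF genes, −0.06 over all genes at that level and −0.01 over all genes tested. Most of the changes were small: 7 ZNF genes fell and 1 rose by 2-fold or more and passed the test, where 3.35% and 2.42% of all genes at that level and 3.71% and 6.4% of all genes tested did so.

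**Figure D1:**
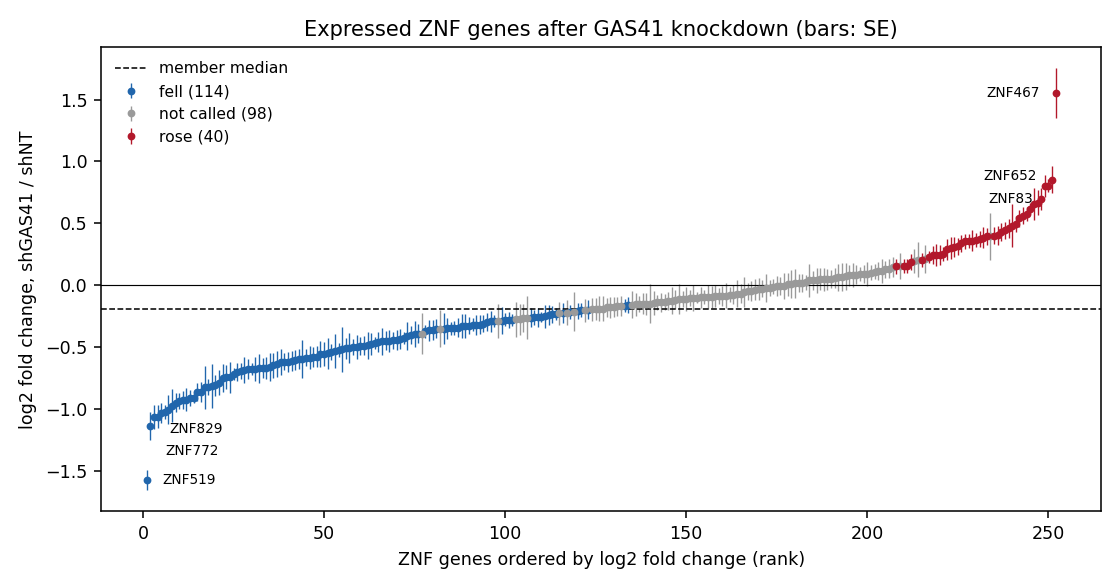
Log2 fold change of knockdown over control (vertical axis) for the 252 expressed ZNF genes in order of that value (horizontal axis, rank), with points coloured by the call and bars of 1 SE. The dashed line is the median of −0.19. The values run from −1.57 for ZNF519 to 1.55 for ZNF467, with 114 falls on the left and 40 rises on the right.

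A threshold on the control level uses 1 side of the comparison, so the same counts were made with other thresholds. With the mean of all 6 libraries as the criterion, 100 of 241 ZNF genes fell (41.5%) and 44 rose (18.3%), beside 39.1% and 33.4% of all genes chosen that way. With the mean of the shGAS41 libraries, 80 of 223 fell (35.9%) and 48 rose (21.5%), beside 37.4% and 35.1%. The share of falls moved from above to below its background with the choice, while the share of rises was lower than its background in each of these choices. The 181 ZNF genes under the threshold went the same way: 68 fell (37.6%) and 16 rose (8.84%), where 20.3% and 38.8% of all genes under it did.

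The share of rises was under that of all genes at each level of expression, without a test of the difference. Between 10 and 20 CPM, 49 of 118 ZNF genes fell (41.5%) and 15 rose (12.7%), beside 33.4% and 33.1% of all genes there. Between 20 and 50 CPM, 43 of 91 fell (47.3%) and 15 rose (16.5%), beside 39.3% and 32.2%. At 50 CPM and above, 22 of 43 fell (51.2%) and 10 rose (23.3%), beside 44.8% and 29.9%. The SE of the log2 fold change had a median of 0.08 over the ZNF genes and 0.06 over all genes at 10 CPM or more.

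The 252 ZNF genes together held a smaller share of the counts after knockdown. They held 0.798, 0.827 and 0.853% of the counts in the control libraries and 0.721, 0.744 and 0.736% in the knockdown libraries, and the groups did not overlap. The genes were chosen on their level in these control libraries, which can favour a lower share after knockdown. The share was not computed with another threshold and was not tested. The first control library was the lowest of its group, and 186 of the 252 genes lay under the control mean in it. The first knockdown library held the lowest value of its group for 160 of the genes. Without the first control library 136 fell and 37 rose, and without the first knockdown library 111 fell and 42 rose. For 156 of the 252 genes (61.9%) the 3 knockdown values lay all above or all below the 3 control values, beside 72.3% of all genes tested and 75.8% of all genes at 10 CPM or more in control cells.

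**Figure D2:**
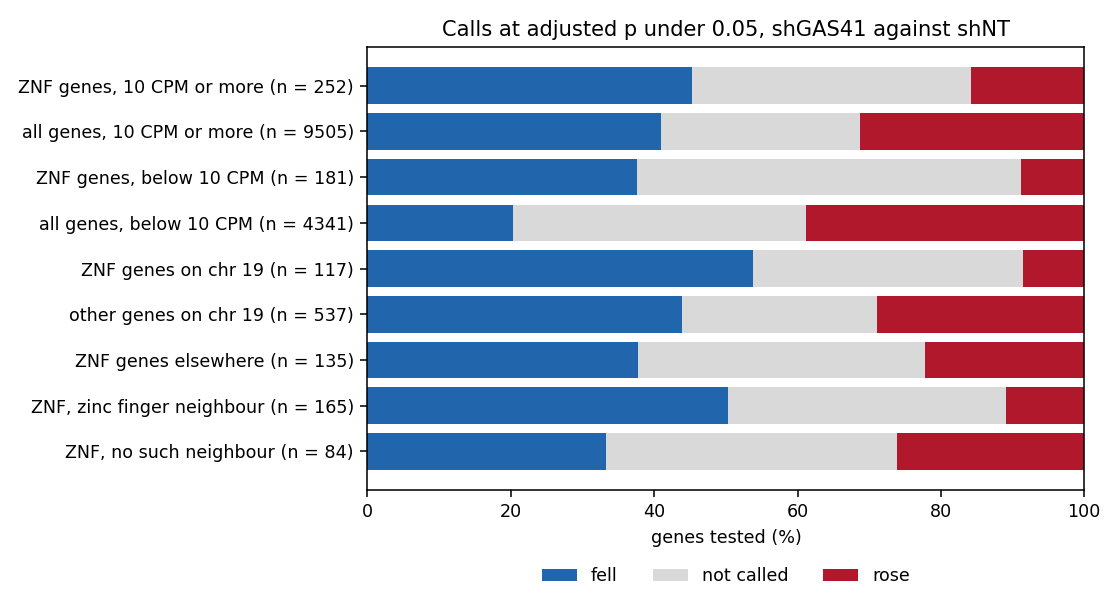
Share of genes (horizontal axis, percent of the genes tested) that fell (blue), were not called (grey) or rose (red) at an adjusted p under 0.05. Rows show ZNF genes and all genes, ZNF genes included, at 10 CPM or more and below 10 CPM in control cells. The rows by chromosome and by zinc finger neighbour are at 10 CPM or more. The red part is 15.9% for the expressed ZNF genes and 31.2% for all genes at 10 CPM or more.

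The largest fall was that of ZNF519, a gene on chromosome 18. It had 24.8, 24.8 and 28.0 CPM in the control libraries and 9.25, 8.66 and 8.12 CPM in the knockdown libraries. All knockdown values lay far under the control values, and the log2 fold change was −1.57 ± 0.08 (± SE here and elsewhere, adjusted p = 1.39e-07). ZNF772, a chromosome 19 gene, went from 14.5, 16.6 and 17.2 to 6.12, 7.88 and 7.90 CPM (−1.14 ± 0.11, adjusted p = 9.21e-06). ZNF542, annotated as a transcribed pseudogene, went from 90.3, 100.3 and 101.8 to 39.6, 49.2 and 51.3 CPM (−1.06 ± 0.09, adjusted p = 5.17e-06). In both, the first library of each group was the lowest, and the groups were well apart. The other falls among the 15 largest with groups apart were ZNF829 (−1.07), ZNF316 (−1.03), ZNF598 (−1.02), ZNF781 (−1.005), ZNF100 (−0.97), ZNF383 (−0.95), ZNF787 (−0.94), ZNF330 (−0.93), ZNF738 (−0.92), ZNF714 (−0.91), ZNF689 (−0.91) and ZNF232 (−0.86). ZNF689 had the tightest libraries of these, at 59.9, 59.5 and 59.6 CPM in control cells and 31.8, 31.6 and 32.1 after knockdown. All 3 pseudogene transcripts of the set (ZNF542, ZNF781 and ZNF271) fell. Of the 15 largest falls, the authors' deposited table does not call ZNF316, ZNF598 and ZNF232 at a false discovery rate under 0.05. It gives them −0.23, −0.36 and −0.32 (false discovery rates 0.282, 0.0641 and 0.0787).

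The largest rise was that of ZNF467, a regulator of the choice between fat and bone cell fates. It had 11.8, 9.76 and 8.52 CPM in the control libraries and 38.8, 24.3 and 25.2 CPM in the knockdown libraries. The first knockdown library stood above the other knockdown libraries, and the groups did not overlap (log2 fold change 1.55 ± 0.20, adjusted p = 0.000217). ZNF467 stood just inside the threshold, at 10.1 raw CPM in control cells. ZNF652, a DNA-binding partner of the repressor CBFA2T3, went from 14.6, 17.7 and 19.5 to 28.3, 33.7 and 31.5 CPM (0.85 ± 0.11, adjusted p = 4.97e-05). ZNF83 was very even between libraries, with 20.4, 20.5 and 21.2 CPM in control cells and 35.9, 36.1 and 36.3 after knockdown (0.81 ± 0.05, adjusted p = 6.85e-07). The other rises among the 15 largest with groups apart were ZNF92 (0.80), ZNF678 (0.70), ZNF367 (0.67), ZNF267 (0.65), ZNF217 (0.62), ZNF680 (0.58), ZNF581 (0.56), ZNF251 (0.54), ZNF84 (0.49), ZNF138 (0.46), ZNF644 (0.45) and ZNF641 (0.43). Of the 15 largest rises, the authors' deposited table does not call ZNF92, ZNF367, ZNF680, ZNF138 and ZNF644 (false discovery rates 0.0692, 0.545, 0.753, 0.56 and 0.582).

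**Figure D3:**
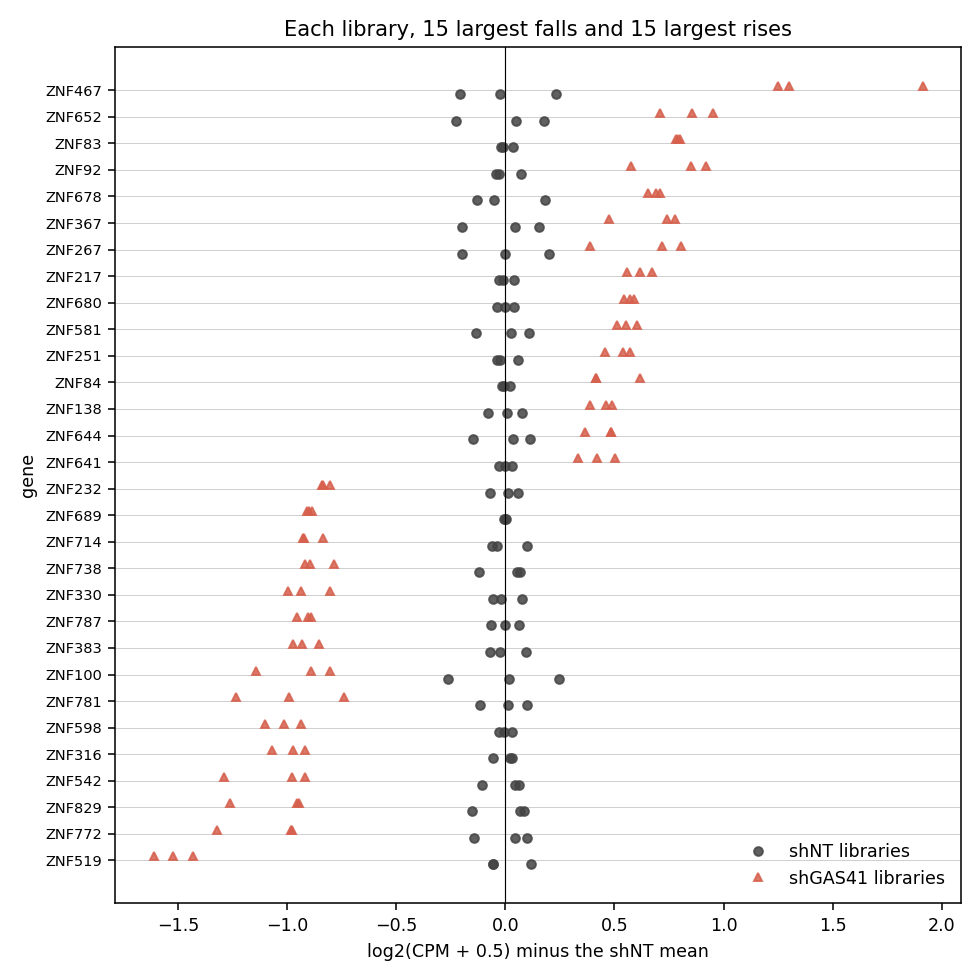
Value of each library, as log2(CPM + 0.5) minus the mean of the 3 control libraries (horizontal axis), for the 15 ZNF genes with the largest falls and the 15 with the largest rises (vertical axis). Circles are control and triangles knockdown libraries. The knockdown triangles of ZNF519 lie farthest left and those of ZNF467 farthest right, and 1 knockdown library of ZNF467 stands apart from the other 2.

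The 5 ZNF genes with the highest CPM in control cells, a scale that does not allow for gene length, all fell. They were ZNF146, whose protein consists almost wholly of zinc fingers, ZNF664, ZNF207, ZNF106 and ZNF655. The choice of these genes by control level can favour falls. At 50 raw CPM or more in control cells, 51.2% of the ZNF genes and 44.8% of all genes fell. ZNF146 went from 299.0, 278.2 and 317.6 to 233.6, 234.0 and 235.3 CPM and changed by −0.35 ± 0.05 on the log2 scale (adjusted p = 0.000148). The log2 fold changes of ZNF664, ZNF207, ZNF106 and ZNF655 were −0.26, −0.37, −0.17 and −0.47. The fall of ZNF106 did not pass when control library 3 was left out (adjusted p = 0.0670), nor when knockdown library 3 was (adjusted p = 0.0680). Around the threshold, ZNF675 (10.06 raw CPM in control cells, log2 fold change −0.29), ZNF701 (10.07, 0.29) and ZNF467 were just inside. ZNF14 (9.94, −0.12), ZNF786 (9.75, −0.06) and ZNF583 (9.70, −0.83) were just outside.

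The ZNF genes were also read by the known work of their proteins, in lists of 4 to 11 members, and no list was tested against other genes. Each count stands beside a background of 45.2% falls and 15.9% rises in the whole set, and 40.9% and 31.2% over all genes at 10 CPM or more. Of the 7 genes for proteins that work on ribosomes and RNA, 5 fell and 1 rose, and their median was −0.32 on the log2 scale. ZNF598, the E3 ubiquitin ligase that marks collided ribosomes, had 83.2, 85.2 and 81.9 CPM in control cells and 38.6, 41.1 and 43.4 CPM after knockdown. Its knockdown values all lay well under the control values, and the log2 fold change was −1.02 ± 0.05 (adjusted p = 1.56e-07). ZNF330, a nucleolar protein, went from 31.7, 30.8 and 33.9 to 16.6, 18.2 and 15.8 CPM (−0.93 ± 0.07, adjusted p = 1.71e-06). ZNF326, a subunit of the DBIRD complex that couples transcription to splicing, fell by 0.52 on the log2 scale, and ZNF622, which helps to mature the large ribosomal subunit, fell by 0.32. ZNF638 was not called (−0.07). The rise of ZNF346, a binder of double-stranded RNA (0.15, adjusted p = 0.0397), was not called without any 1 of the 6 libraries, with adjusted p from 0.05001 to 0.0859, nor with scaling to library size alone (0.0734). ZNF593, a ribosome biogenesis factor at 2.50 CPM and so outside the set, fell as well (−0.65).

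Partners of chromatin enzymes were divided. Of the 8 on this list in the set, 3 rose, 1 fell and 4 were not called, with a median of 0.11. ZNF217, an oncoprotein that binds the CoREST and CtBP corepressors, had 114, 113 and 118 CPM in control cells and 184, 177 and 170 CPM after knockdown. Every knockdown value lay above every control value, and the change was 0.62 ± 0.05 on the log2 scale (adjusted p = 1.32e-06). ZNF644, a partner of the histone H3 lysine methyltransferases G9a and GLP, went from 68.3, 77.4 and 81.9 to 97.5, 106.1 and 106.2 CPM (0.45 ± 0.07, adjusted p = 0.000209). ZNF592, ZNF532, ZNF687 and ZNF827 were not called, with values from −0.10 to 0.12. Calls on ZNF335 (0.16) and ZNF131 (−0.16) were weak. ZNF335 was not called without control library 1 or 3 or without knockdown library 2 or 3 (adjusted p 0.0700 to 0.104). ZNF131, whose groups overlapped, was not called without control library 2 or 3 or without knockdown library 1 or 2 (0.107 to 0.195), nor with DESeq2 (0.0556). Of the list's genes under the threshold, ZNF703 (−1.58), ZNF503 (−1.23) and ZNF516 (−0.45) all fell. ZNF703 and ZNF503 were low in control cells, at 2.03 and 0.996 CPM. The authors' deposited table calls none of these falls (false discovery rates 0.956, 0.353 and 0.145), and its value for ZNF703 is above 0 (0.123).

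The genes listed as activators, a label that does not cover all that these proteins do, were evenly divided. ZNF76 and ZNF148 rose, ZNF395 and ZNF639 fell, and ZNF143, ZNF281 and ZNF384 were not called. ZNF76, a relative of ZNF143 that activates small nuclear RNA and messenger RNA promoters, went from 56.4, 56.0 and 51.4 to 68.3, 70.6 and 72.1 CPM (0.37 ± 0.05, adjusted p = 0.000142). ZNF143 itself had a log2 fold change of 0.10 (adjusted p = 0.170). ZNF148, which binds GC-rich promoters, went from 71.0, 65.8 and 70.1 to 90.6, 90.8 and 83.7 CPM (0.36 ± 0.05, adjusted p = 0.000161). In the mitosis and DNA damage list, 2 of 4 fell and none rose. ZNF207, which loads the checkpoint protein BUB3 at kinetochores, went from 219, 234 and 227 to 165, 180 and 181 CPM (−0.37 ± 0.05, adjusted p = 7.95e-05). ZNF668, which takes part in DNA repair, fell by 0.36 on the log2 scale, and ZNF830 (−0.23) and ZNF451 (−0.09) were not called.

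Genes for proteins with a SCAN domain, through which zinc finger proteins pair with each other, fell in 5 of 11 cases (45.5%, near the 45.2% of the whole set) and rose in 2. ZNF496, a partner of the methyltransferase NSD1, went from 72.5, 70.3 and 67.7 to 44.9, 43.6 and 43.2 CPM (−0.68 ± 0.05). ZNF232 (−0.86), ZNF444 (−0.50), ZNF449 (−0.29) and ZNF397 (−0.26) also fell, and ZNF274 (0.25) and ZNF24 (0.16) rose. The call on ZNF449 was lost without control library 2 or 3 or without knockdown library 1 or 2 (adjusted p 0.0922 to 0.149). That on ZNF397 was lost without the second knockdown library (0.0593). That on ZNF24 was lost without control library 1 or 2 or without knockdown library 2 or 3 (0.0650 to 0.0897).

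The KRAB proteins known for binding retroelements or imprinted regions did not share a direction. Of 5 in the set, 1 fell, 2 rose and 2 were not called. ZNF93, a repressor of LINE-1 elements, went from 12.5, 13.2 and 12.7 to 8.02, 8.90 and 7.26 CPM (−0.67 ± 0.09, adjusted p = 8.38e-05). ZNF91, a repressor of SVA elements, went from 14.4, 15.7 and 17.5 to 19.3, 21.8 and 19.9 CPM (0.36 ± 0.09, adjusted p = 0.00398). Both sets of libraries were apart, in opposite directions. ZNF274, which recruits SETDB1 to the 3′ ends of ZNF genes, went from 41.6, 45.1 and 44.7 to 49.9, 53.3 and 53.1 CPM (0.25 ± 0.05, adjusted p = 0.00204). The imprinting regulator ZNF445 was at 25.5 CPM in control cells and 25.9 CPM after knockdown and was not called (0.02). The authors' deposited table calls none of the 5 genes. It gives −0.27 for ZNF93, 0.36 for ZNF91 and 0.20 for ZNF274 (false discovery rates 0.0842, 0.152 and 0.568).

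Among 17 partners of KRAB zinc fingers, which are not members of the set, 9 fell (52.9%) and 3 rose (17.6%), beside 40.9% and 31.2% of all genes at 10 CPM or more, and the difference was not tested. TRIM28, the corepressor that KRAB boxes bind, had 533, 590 and 536 CPM in control cells and 385, 409 and 416 CPM after knockdown (−0.45 ± 0.05, adjusted p = 2.30e-05). UHRF1 (−1.12) and DNMT1 (−0.80), which maintain DNA methylation at replication, fell as well. In the authors' deposited table, 3 of the 17 partners fell and 1 rose at a false discovery rate under 0.05. UHRF1 (−0.56) and DNMT1 (−0.36) fell there, but TRIM28 was not called (−0.04, false discovery rate 0.461). ATF7IP, a cofactor of SETDB1, rose (0.32), and SETDB1 itself was not called (0.12, adjusted p = 0.0636). The calls on CBX1 and MORC2 (falls) and on CHD3 and TRIM33 (rises) were each lost in at least 1 choice of library to leave out, with adjusted p from 0.0552 to 0.137. For CBX1 this was knockdown library 2, for TRIM33 control library 2 or knockdown library 2, and for MORC2 control library 3 or knockdown library 2 or 3. For CHD3 it was control library 2 or 3 or knockdown library 1 or 2.

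By position, 63 of 117 ZNF genes on chromosome 19 fell (53.8%) and 10 rose (8.55%), and the median log2 fold change there was −0.28. On the other chromosomes 51 of 135 fell (37.8%) and 30 rose (22.2%), and the median was −0.11. Other genes of chromosome 19 at 10 CPM or more had a median of −0.10, with 43.9% falling and 28.9% rising. Over all genes at 10 CPM or more, 40.9% fell and 31.2% rose. The ZNF genes were also divided by whether a neighbouring gene is itself a zinc finger gene. With such a neighbour, 83 of 165 fell (50.3%) and 18 rose (10.9%). Without one, 28 of 84 fell (33.3%) and 22 rose (26.2%). Many of the clusters are on chromosome 19, and neither split was tested.

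**Figure D4:**
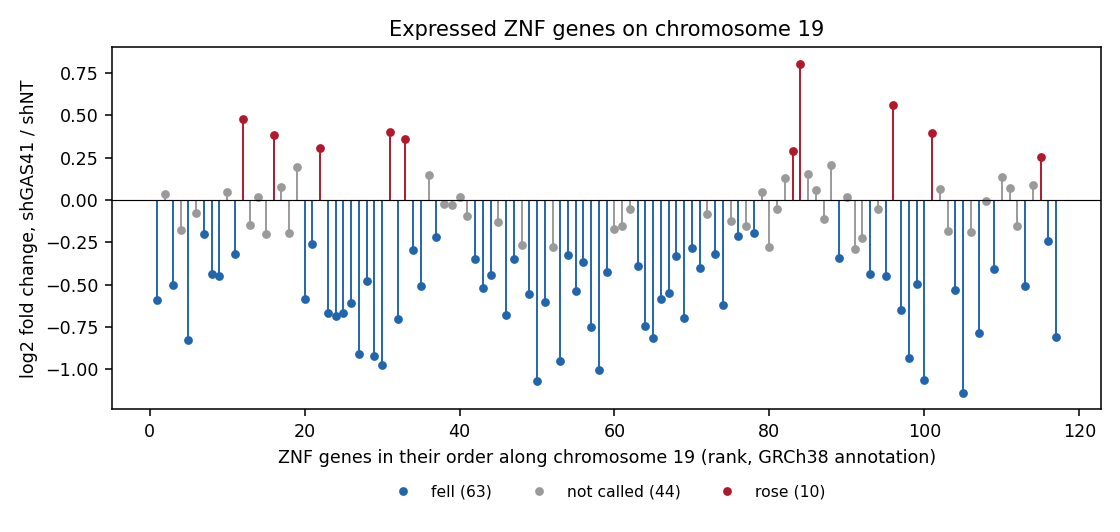
Log2 fold change (vertical axis) of the 117 expressed ZNF genes of chromosome 19 in their order along it (horizontal axis, rank), coloured by call. Long stretches of blue falls are broken by grey genes that were not called and 10 red rises.

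Of 72 pairs of ZNF genes that were direct neighbours, both fell in 21, both rose in 1 and the calls were opposite in 9. Of all ZNF genes with a zinc finger neighbour, 50.3% fell and 10.9% rose, and whether neighbours went together was not tested. The pair that rose was ZNF701 and ZNF83, and the call on ZNF701 was lost without the second knockdown library (adjusted p = 0.0533). In the runs ZNF225, ZNF234, ZNF226 and ZNF227, ZNF527, ZNF569, ZNF570 and ZNF793, and ZNF85, ZNF430, ZNF714 and ZNF431, all 4 genes fell, with medians of −0.36, −0.45 and −0.64. The authors' deposited table does not call ZNF225, ZNF226, ZNF527, ZNF570, ZNF430 and ZNF431 (false discovery rates from 0.0659 to 0.501). It calls the other genes of those runs lower. The longest run, of 7 genes from ZNF566 to ZNF850, had 5 falls and no rise. ZNF566 had 39.1, 53.2 and 58.6 CPM in control cells and 27.7, 39.7 and 37.8 CPM after knockdown, so its groups overlapped. Its call (−0.52, adjusted p = 0.0370) was lost without control library 2 or 3 or without knockdown library 1 or 3 (adjusted p 0.0747 to 0.107). In the run ZNF302, ZNF181, ZNF599 and ZNF30 none was called, with values from −0.09 to 0.02. ZNF398 to ZNF746 (6 genes) had 4 falls and no rise, and ZNF426 to ZNF562 (4 genes) had 3 falls and no rise. The runs ZNF736 to ZNF273 (5 genes, median −0.005) and ZNF605 to ZNF140 (4 genes, median 0.16) each had 1 fall and 2 rises. Neighbouring copies can be so alike that reads are split between them, and 104 of the 252 genes overlap another annotated gene. The sources used here do not give strand use in counting, so those values are less certain. The genes ZNF580 (−0.65) and ZNF581 (0.56) overlap each other and went in opposite directions. In the authors' deposited table ZNF581 rose (0.59), and ZNF580 was not called (−0.095, false discovery rate 0.496).

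Some neighbours start from a shared region in opposite directions. ZNF829 and ZNF568 both fell, and only 40 bases lie between their starts. The region, shown because 1 ETS core lies between both starts, is chr19:36916272-36916351, read on the plus strand in the direction of ZNF568, with the 20 first transcribed bases of each gene at the ends and CCGGAAG in capitals.
ZNF829 and ZNF568: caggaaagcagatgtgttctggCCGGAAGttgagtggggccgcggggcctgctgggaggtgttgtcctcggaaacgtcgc

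ZNF829 went from 39.5, 46.0 and 46.7 to 18.0, 22.4 and 22.6 CPM (−1.07 ± 0.10, adjusted p = 5.60e-06). ZNF568 went from 20.9, 23.8 and 25.7 to 15.7, 15.4 and 15.2 CPM (−0.60 ± 0.08, adjusted p = 9.03e-05). In neither did the groups overlap. ZNF829 lies over another gene, ZNF345, in the annotation. Among 5 pairs of ZNF genes with overlapping windows on opposite strands, both genes fell in 2 (ZNF829 with ZNF568, and ZNF569 with ZNF570). In the other 3 pairs 1 gene fell and the other was not called.

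The 25 genes with related windows included falls and rises. Of these, 12 fell, 7 rose and 6 were not called, with a median of −0.14 and values from −1.57 to 0.80. The group depends on the limit of 20 words: with 30 words it had 18 genes, of which 10 fell and 5 rose, with a median of −0.38 and values from −0.97 to 0.80. With 40 words it had 17 genes, again with 10 falls and 5 rises, and a median of −0.48. ZNF519, which alone gave the low end, and ZNF267 were not in the group at either limit. The median over the other genes with a window was −0.20, −0.19 and −0.19 at 20, 30 and 40 words, so the group stood above it at 20 words and below it at 30 and 40, with no test of the difference. At 20 words they supplied 3 of the 15 largest falls and 5 of the 15 largest rises. At 20 words, the 193 other genes with a window had 88 falls and 26 rises. By chromosome, 10 of the 13 on chromosome 19 fell and 2 rose, while 1 of the 5 on chromosome 7 fell and 3 rose. The authors' deposited table calls none of the 3 rises on chromosome 7: ZNF92 (0.53, false discovery rate 0.0692), ZNF680 (0.19, 0.753) and ZNF138 (0.24, 0.56). Of the falls on chromosome 19, it does not call ZNF486, ZNF93, ZNF430, ZNF681, ZNF431 and ZNF675. Of the genes with printed windows, it calls ZNF519, ZNF100 and ZNF714 lower and ZNF267 higher. On chromosome 7, ZNF92 went from 21.0, 21.2 and 22.8 to 32.5, 39.4 and 41.4 CPM (0.80 ± 0.09, adjusted p = 1.98e-05). ZNF680 went from 23.1, 22.5 and 23.8 to 35.0, 33.9 and 34.6 CPM (0.58 ± 0.06, adjusted p = 7.63e-06). On chromosome 19, ZNF714 went from 37.4, 36.9 and 41.2 to 21.4, 19.98 and 20.02 CPM (−0.91 ± 0.07, adjusted p = 9.55e-07). The windows of ZNF714 and ZNF92 shared 48 words and a longest run of 28 bases, and those of ZNF100 and ZNF43 (0.40, rose) shared a run of 35 bases. All 25 windows held CCAAT, and CCGGAAG stood in 10 of the 12 that fell and in 6 of the 7 that rose. Of 10067 other tested genes with a window, 17 shared as many words with a gene of the group, and 15 of these had ZNF symbols.

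**Figure D5:**
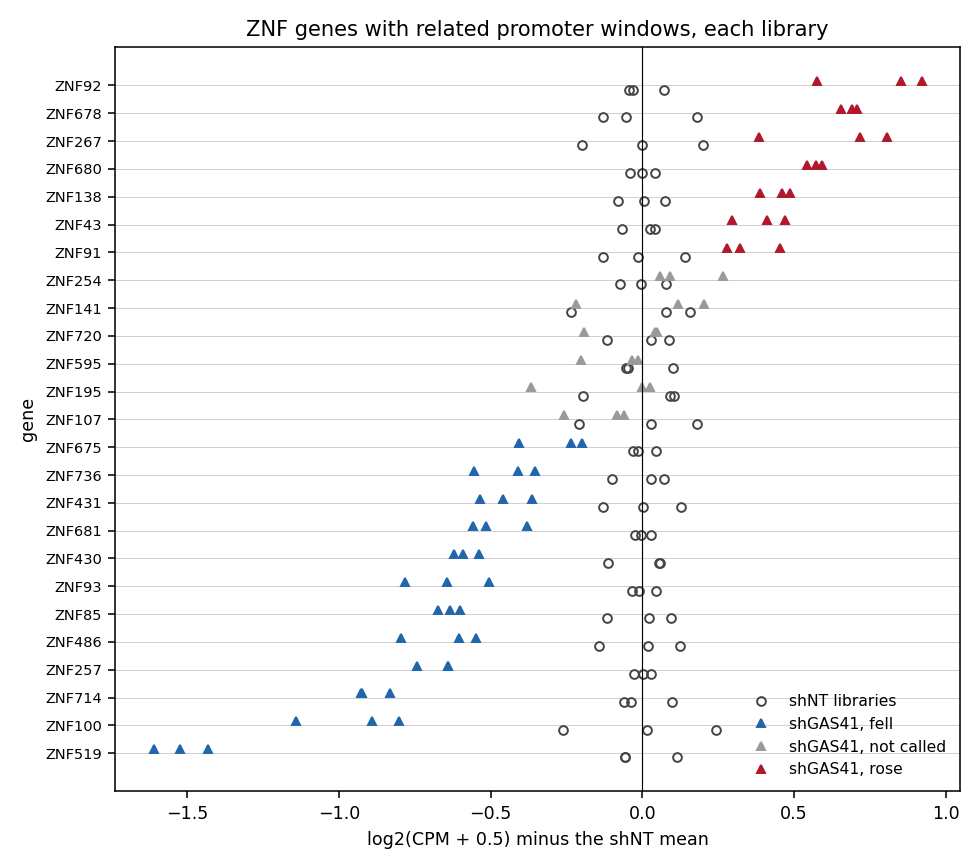
Value of each library, as log2(CPM + 0.5) minus the mean of the 3 control libraries (horizontal axis), for the 25 ZNF genes with related promoter windows (vertical axis). Open circles are control libraries and triangles are knockdown libraries, coloured by call. From ZNF519 at the bottom (−1.57) to ZNF92 at the top (0.80), 12 genes lie to the left and 7 to the right of their controls.

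Over all 218 windows, ETS cores were common in ZNF promoters whichever way the transcript went. CCGGAAG was present, on either strand, in 43.6% of the ZNF windows and in 22.3% of the windows of all 7808 genes at 10 CPM or more that have one. It was in 46.0% of the 100 that fell, 42.4% of the 33 that rose and 41.2% of the 85 not called. GGGCGGGG (SP1) was in 36.2% beside 40.7%, with 31.0% among falls and 54.5% among rises, and CCAAT (NF-Y) in 43.6% beside 37.6%. The other motifs searched were less frequent and are given as ZNF windows beside all windows at that level: TGACGTCA (CRE) 4.59 and 3.62%, TATAAA 2.75 and 4.79%, ACTACAA (ZNF143) 6.42 and 4.33%, AAGATGGC (YY1) 5.50 and 6.54%, the NRF1 motif 2.75 and 2.83%, and TTTCCCGC or TTTGGCGC (E2F) 3.67 and 4.09%. Both strands were searched, and matches of different motifs may overlap. Windows that share sequence are not independent, and no difference in motif share was tested. The median CpG count was 23 in ZNF windows and 27 in all windows at that level.

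The authors' deposited table gives the same contrast with values that are higher on the whole. In it 55 of the 252 genes fell and 18 rose at a false discovery rate under 0.05, beside 14.6% and 18.6% of all genes tested and 17.8% and 14.6% of those at 10 CPM or more, and the median was −0.03. Of the 114 that fell in the fit to the counts, 53 were called lower in the authors' deposited table and 61 were not called. Of the 40 that rose, 17 were called higher there and 23 were not called. The authors' deposited table gives log2 fold changes of −1.25 for ZNF519, −0.51 for ZNF772, 1.41 for ZNF467 and 0.97 for ZNF217. For ZNF598 the authors' deposited table gives −0.36 with a false discovery rate of 0.0641, where the counts gave −1.02. For 7 of the genes that fell here, among them ZNF331, ZNF395 and ZNF675, the authors' deposited table gives a value above 0. Its values minus those of the fit had a median of 0.177 over the ZNF genes and 0.126 over all genes at 10 CPM or more. The sources used here do not give the model behind the authors' values.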

How the data were processed

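RNA sequencing of H1299 cells was analysed from 1 table. As deposited, it has whole-number raw counts for each gene in 3 shNT and 3 shGAS41 libraries, with totals of 58629147 to 72747010. The table also gives the authors' log2 fold change, p-value and adjusted p-value per gene, which were used only where the authors' deposited table is named. Libraries were made with the TruSeq RNA kit, per the labels' protocols. TopHat2 2.0.10, Bowtie2 2.1.0, HTSeq, CASAVA 1.8.2, MACS 1.4.2 and hg19 are listed, with no roles, per the submitters' processing notes. Counting options and strand use: not given in the sources used here. The 6 chromatin immunoprecipitation samples were not analysed here.

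All 13853 listed genes were fitted with edgeR 4.0.16 (R 4.3.3, limma 3.58.1): TMM scaling, filterByExpr (which left 13846 genes), robust quasi-likelihood dispersion, Benjamini-Hochberg adjustment over all genes tested at 0.05. The biological coefficient of variation was 7.58%, which with 3 libraries a group sets the precision. CPM in the text is TMM-scaled unless called raw. Code was tested on simulated counts. Genes were placed, and neighbours, overlaps and promoter windows taken, with RefSeq GRCh38.p14, which is not the authors' build, so those coordinates are RefSeq's alone. All 252 genes matched an entry, 4 under another symbol, and the first listed window of a gene was used.

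The set of genes, the lists and the naming rule were chosen with earlier results of these data known, and the related windows and their members were chosen after their values were seen. The rule named the 15 largest falls and 15 largest rises among called genes with no overlap between groups, the 5 highest in control cells, the 3 on either side of the threshold, all genes of the lists, and YEATS4. Genes of runs and pairs, the related windows, and the KLF and ZBTB genes in the closing section were added after their values were seen. A planned division by KRAB box and number of fingers was not made, since no protein sequences were used here. Alternatives were DESeq2 1.42.0, other scaling, filters and thresholds, leaving out each library, and the replicate number as a block. Leaving out chromosome 19 or overlapping genes, other limits on shared words, and the authors' values, were added after the data had been seen.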

Additional observations from a re-analysis of the deposited data

How the results depend on the processing

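Under DESeq2, median-ratio scaling, a 1 CPM filter, no filter and library size alone, 112 to 125 of the 252 genes fell, 38 to 40 rose and no called gene changed sign. Leaving out 1 library gave 105 to 136 falls, 34 to 42 rises and medians from −0.23 to −0.15, with 5 to 15 calls lost and again no called gene changing sign. With the replicate number as a block, 144 fell, 46 rose and the median was −0.19. That block is not part of the design: same-numbered libraries deviated together with correlations of 0.446, 0.0783 and 0.0940, and libraries 2 and 3 of each group correlated better with each other's number (0.269 and 0.270). With a threshold of 20 CPM in control cells 65 of 134 fell and 25 rose. Requiring a log2 fold change of 0.5 or more in size left 58 falls and 11 rises. With the threshold on the shGAS41 mean the median was −0.10. Leaving out genes that overlap another gene gave 73 falls and 23 rises of 148, and leaving out chromosome 19 gave 51 falls and a median of −0.11 over 135 genes. Fewer genes were counted under these choices. Shares over all genes were not computed for the 20 CPM threshold, the limit of 0.5, or the sets without overlapping genes or chromosome 19. Those counts therefore set the ZNF genes beside no background. For the genes with related promoter windows, the median of −0.14 became −0.38 with a limit of 30 shared words and −0.48 with 40, and with 15 it was −0.17. By the values of the authors' deposited table, 55 genes fell and 18 rose and the median was −0.0345, and the cause of the difference was not tested.

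Of 1703 values for 142 named genes, 51 lost a call, 19 gained one and 9 changed sign, all 9 in genes that were not called. With 1 library left out, FAM208A ranged from −0.147 to 0.0616, and was 0.0534 and 0.0120 without control library 1 and knockdown library 2. ZNF365 ranged from −0.266 to 0.0215, ZNF446 from −0.0274 to 0.0337 (0.00420 without knockdown library 3) and ZNF10 from −0.136 to 0.293 (−0.0316 without knockdown library 3). With the 1 CPM filter ZNF446 was 0.000300. With 3 libraries a group, the size of change that passed depended on the spread of each gene between libraries. In the main fit ZNF346 (0.15) passed, while ZNF697 (0.39) and ZNF239 (−0.39) were not called.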

Other observations

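Other zinc finger transcription factor families at 10 CPM or more in control cells are given by their counts, and no difference between families was tested. Each count stands beside 40.9% falls and 31.2% rises over all genes at that level. Of 12 KLF genes, which bind GC-rich and CACCC promoter elements, 8 rose and 3 fell, and the median over them was 0.33 on the log2 scale. KLF4 (0.78), KLF9 (0.74) and KLF11 (0.73) rose most. KLF16 went from 62.8 ± 2.48 to 22.5 ± 1.11 CPM (mean ± SD, n = 3) and KLF13 from 45.2 ± 2.45 to 16.5 ± 1.91 CPM, with log2 fold changes of −1.48 and −1.45. KLF5 fell as well (−0.93). Of 30 genes whose symbols begin with ZBTB, most of them for proteins that join zinc fingers to a BTB domain, 11 rose and 8 fell, with a median of −0.01, and ZBTB5 (1.05) and ZBTB4 (0.82) rose most. Of 22 ZNF genes with a letter after the number, 10 fell and 4 rose, and of 15 ZFP genes 8 fell and 3 rose. Of 7 ZSCAN genes 3 fell and 0 rose, and of 5 ZKSCAN genes 3 fell and 1 rose.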
